A study of Mus musculus with 6 samples.

Results

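Cadherins and protocadherins are the genes of 2 families of cell adhesion receptors, and their levels are described here in embryoid bodies that contain spinal motor neurons. The members were chosen by name alone, as every gene of the table whose symbol is Cdh followed by digits or begins with Pcdh. This gave 53 of 19613 genes. By the usual division of the family, 5 were type I classical cadherins (Cdh1, Cdh2, Cdh3, Cdh4 and Cdh15), 13 were type II classical cadherins, 4 were other cadherins (Cdh16, Cdh17, Cdh23 and Cdh26), 21 were protocadherins of the beta cluster and 10 were protocadherins that lie outside the clusters.

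The 6 arrays form 1 group. Embryoid bodies are balls of cells that form from embryonic stem cells in suspension. Here the stem cells were of the mouse line HBG3, in which the promoter of Hb9 (Mnx1), a gene of motor neurons, drives green fluorescent protein, and the bodies were turned toward spinal motor neurons with retinoic acid and a hedgehog agonist. Every culture was held for 24 h with 5% blood fluid of the Huntington's disease model B6CBA-Tg(HDexon1)62Gpb/3J, taken from male carriers of a fragment of the human huntingtin gene at 10 weeks of age, before symptoms. The sample labels call the fluid plasma and the methods call it serum. Control arrays were not analysed here, so the values describe levels under this serum and their spread over arrays, and no response to it. The arrays are named replicates 2, 4, 5, 6, 7 and 8, and these numbers carry no order. The study describes 6 serum samples of this model, so the arrays are read here as separate sera. Whether each serum came from its own mouse, and which batch of cultures it met, is not given. The SDs therefore hold technical spread together with any differences between sera.

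Classical cadherins are calcium-dependent receptors that join like cells through their outer domains and bind catenins, which tie them to the actin skeleton, inside the cell. In the developing spinal cord N-cadherin (Cdh2) holds the neural epithelium together, and combinations of type II cadherins help motor neurons to sort into pools. Protocadherins of the alpha, beta and gamma clusters give single neurons distinct surface identities, since each neuron uses a small choice of the many promoters, and the protocadherins outside the clusters act in cell movement, axon growth and synapse formation. In the alpha and gamma clusters, members share constant exons, which makes their signals partly common. Beta genes have no such shared exons, and the beta cluster was the part of the clustered family that could be analysed. Of the RefSeq symbols that fit the rule, 14 of the alpha cluster, 22 of the gamma cluster, Pcdhb20, Cdh13, Pcdh7 and Pcdh9 were not analysed here.

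The unit is the log2 of the deposited intensity, 1 value per gene and array. A gene was called above background when its mean was over 7.47. This level is the 95th percentile among the means of 1032 olfactory receptor genes, which most cells do not use. Probes differ in how strongly they bind, so an order of intensities between genes is not an order of transcript numbers. In bulk samples, fewer cells of a type and less RNA per cell cannot be told apart. Replicate 8 was the extreme array at both ends of the scale. Its lower quartile of intensity was 109 against 121 to 129, and its median olfactory receptor level was 5.44 against 5.49 to 5.61. Its upper quartile was the highest, at 726 against 705 to 718. The shared movement of the beta genes and the relations with the olfactory receptor level, in which this array is the extreme, are given with and without it. Median intensities ranged from 296 to 311 over the arrays. Among cell type markers, the 8 motor neuron markers that could be matched, Chat, Isl1, Isl2, Lhx3, Lhx4, Mnx1, Prph and Slc5a7, were all above background. So were 6 of 7 motor neuron progenitor markers (all but Pax6), 7 of 8 interneuron markers and 4 of 4 floor plate markers. Glial markers passed at 6 of 7 and muscle markers at 3 of 4, and each remaining list at 50% or less. These counts alone thus do not set the spinal lists apart from glia. The background line is a low one, passed by 65.2% of all genes, and each count of a list above it is to be read beside that share.

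Of the 53 members, 37 had a mean above background, or 69.8%, beside 65.2% of all genes, so the family as a whole lay near the share of the table. The classes differed around that share. Above background were 4 of 5 type I and 6 of 13 type II cadherins, 1 of 4 other cadherins, 19 of 21 beta protocadherins and 7 of 10 protocadherins outside the clusters. Together 11 of 22 cadherins and 26 of 31 protocadherins were above background. These counts describe the classes and were not tested, since genes are not replicates.

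**Figure D1:**
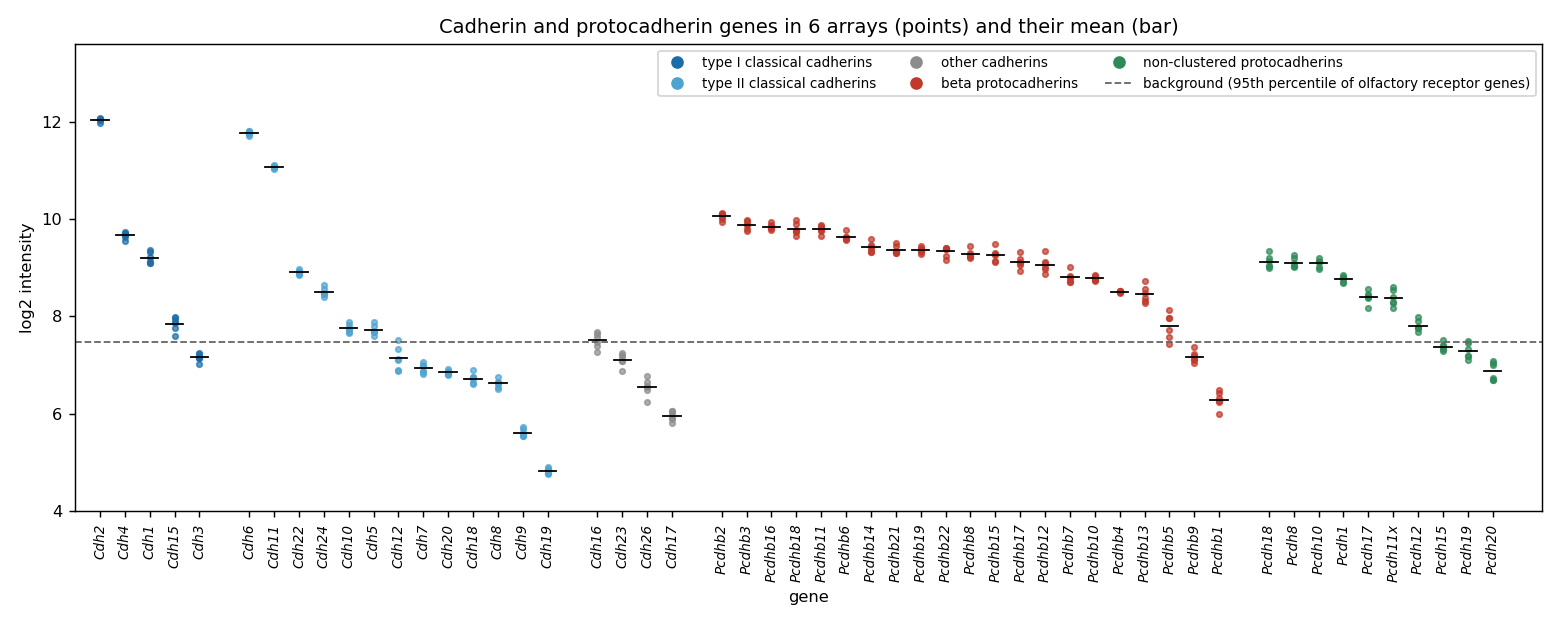
Log2 intensity (vertical axis) of each of the 53 genes (horizontal axis, ordered by mean within its class) in the 6 arrays. Points are single arrays, the black bar is their mean and the dashed line is the background level of 7.47. Cdh2, Cdh6 and Cdh11 lie above all other members, 19 of 21 beta protocadherins lie above the line, and 7 of 13 type II cadherins lie below it.

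The classical cadherins held both the highest levels of the family and many genes at background. Cdh2, Cdh6 and Cdh11 led all 53 members, and 7 type II cadherins were not above background. Cdh2, N-cadherin, had a log2 intensity of 12.04 ± 0.037 (SD, n = 6), with a lowest array of 11.98, a median of 12.05 and a highest of 12.08. This was higher than 98.7% of all genes. Cdh6, a type II cadherin of the neural tube and the kidney, had 11.78 ± 0.039 (11.72, 11.78 and 11.82 for the lowest, median and highest array). Cdh11, a type II cadherin known from mesenchyme and bone that the neural tube also uses, had 11.07 ± 0.031 (11.03, 11.08 and 11.12). The order of these levels was the same in every array. Cdh2 exceeded Cdh6 by 0.27 on the log2 scale (SD of the difference 0.040), Cdh6 exceeded Cdh11 by 0.70 (SD 0.055), and Cdh11 exceeded the next member, Pcdhb2, by 1.02 (SD 0.088), each in 6 of 6 arrays.

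Among the other type I cadherins, Cdh4, or R-cadherin, a close relative of Cdh2 in the nervous system, had 9.67 ± 0.062 (9.56, 9.68 and 9.73). Cdh1, E-cadherin of epithelia and of embryonic stem cells, had 9.20 ± 0.11 (9.09, 9.18 and 9.36), higher than 69.7% of genes. The name Cdh1 is also an older name of Fzr1, which has its own values here, and the usage in the annotation could not be checked. Cdh1 lay above background in every array, while of the other epithelial markers Krt8 (8.78 ± 0.16) and Krt18 (7.94 ± 0.098) were above background and Epcam (6.98 ± 0.042), Cldn6 (6.67 ± 0.18) and Esrp1 (6.29 ± 0.044) were not. The mean of these 5 genes ranged from 7.23 to 7.46 over the arrays. Of the pluripotency markers, Nanog (8.94 ± 0.12) and Klf4 (8.16 ± 0.17) were above background and Pou5f1, Zfp42, Esrrb and Dppa5a were not. The part of such cells in the level of Cdh1 was not tested. Cdh15, the M-cadherin of muscle, had 7.85 ± 0.15 (7.59, 7.89 and 7.98), with its lowest value in replicate 8. Beside it, 3 of 4 muscle markers were above background, at 7.73 ± 0.17 for Myod1, 7.63 ± 0.17 for Des and 7.59 ± 0.097 for Actc1, and Myog was not, at 7.28 ± 0.23. Their mean ranged from 7.28 to 7.70, and their part in the level of Cdh15 was not tested. Cdh3, P-cadherin, was the type I cadherin not above background, at 7.16 ± 0.082.

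Below Cdh6 and Cdh11, 4 type II cadherins were above background. Cdh22, a cadherin of the brain and pituitary, had 8.90 ± 0.047 (8.84, 8.90 and 8.97). Cdh24 had 8.50 ± 0.088 (8.40, 8.48 and 8.64). Cdh10, which is known from the brain, had 7.76 ± 0.087 (7.65, 7.75 and 7.89). Cdh5, VE-cadherin, the junction protein of blood vessels, had 7.72 ± 0.10 (7.59, 7.70 and 7.89). Of 6 endothelial markers beside Cdh5, Tie1 was above background at 8.50 ± 0.15, and Pecam1, Kdr, Tek, Flt1 and Emcn were not, at means between 6.09 and 7.33. The mean of the 6 ranged from 6.93 to 7.11.

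The other 7 type II cadherins were not above background: Cdh12 at 7.14 ± 0.25, Cdh7 at 6.93 ± 0.097, Cdh20 at 6.85 ± 0.044, Cdh18 at 6.72 ± 0.10, Cdh8 at 6.62 ± 0.089, Cdh9 at 5.61 ± 0.076 and Cdh19 at 4.82 ± 0.060. Cdh7 and Cdh20 are cadherins that mark motor neuron groups in the embryonic spinal cord, and Cdh19 is known from neural crest and Schwann cells. The name Cdh7 is also an older name of Cdh20. Neural crest markers stood at 2 of 4 above background, Sox10 at 7.93 ± 0.12 and Ngfr at 10.95 ± 0.059, the latter also a motor neuron gene. Cdh12 had the second largest SD of all 53 genes and passed the background of its own array in 1 of 6 arrays, replicate 8. For every member at or under the line, the array gives no more than a bound on the level.

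Of the other cadherins, Cdh16, first known from the kidney, lay just above background at 7.51 ± 0.15 (7.28, 7.53 and 7.68), and passed the background of its own array in 3 of 6 arrays. It was the member just inside the line, and Pcdh15, at 7.38 ± 0.086, the member just outside it. Cdh23 and Pcdh15, the partners of the tip link of hair cells, were both below it, with Cdh23 at 7.11 ± 0.13. Cdh26 at 6.55 ± 0.18 and Cdh17, the cadherin of liver and intestine, at 5.95 ± 0.10 were below as well.

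The levels were set against the order of the genes in RefSeq, a choice made after the values were seen. Several type II cadherins are neighbours in gene order, with no other protein-coding gene between them. This order gives no distance in bases. The neighbours of Cdh6 and Cdh11 lay far below them in level, while Cdh10, Cdh12 and Cdh18 lay nearer to each other. Cdh6, at 11.78, is followed by Cdh9, at 5.61, then by Cdh10 at 7.76 and Cdh12 at 7.14, and, after the single gene Acot10, by Cdh18 at 6.72. In the run of Cdh8, Cdh11 and Cdh5, the middle gene had 11.07 and its neighbours 6.62 and 7.72. The neighbours Cdh3 and Cdh1 stood at 7.16 and 9.20. Cdh7 and Cdh19 were both below background, at 6.93 and 4.82.

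**Figure D2:**
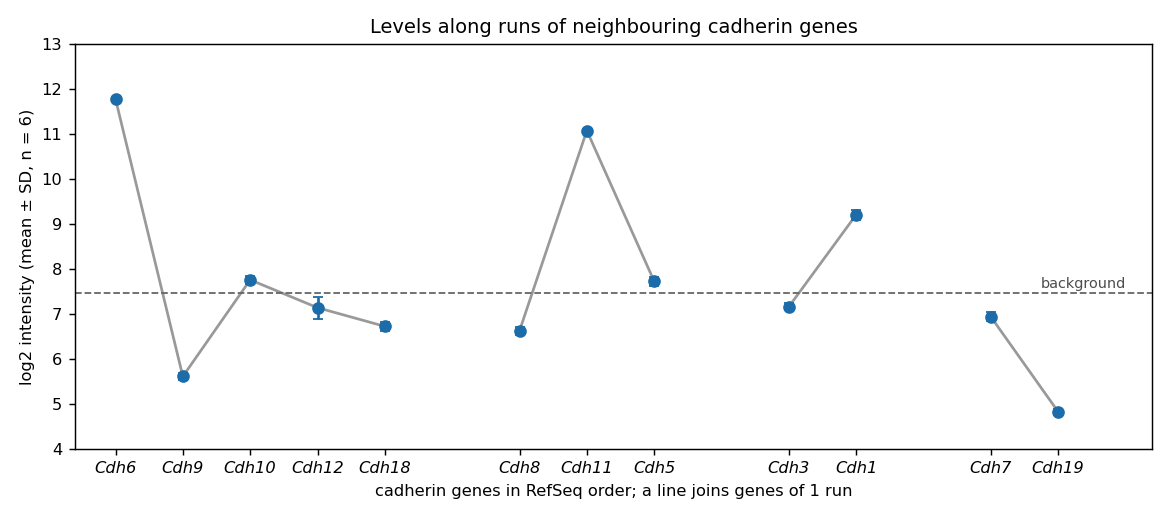
Mean log2 intensity with its SD over 6 arrays (vertical axis) of cadherin genes in RefSeq order (horizontal axis), where a line joins the genes of a run and the dashed line is the background level. Cdh6, at 11.78, and Cdh11, at 11.07, stand beside neighbours that lie near or below background.

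The promoters of Cdh6 and Cdh9 are shown because Cdh6 led the type II cadherins while its neighbour Cdh9 was not above background. Each is the stretch of 250 bases before the annotated start, from RefSeq on GRCm38.p6, read 5′ to 3′ on the strand of the gene: Cdh6 at chr15:13173676-13173925 on the minus strand and Cdh9 at chr15:16728665-16728914 on the plus strand. Capitals mark the longest run of bases that both hold.
Cdh6: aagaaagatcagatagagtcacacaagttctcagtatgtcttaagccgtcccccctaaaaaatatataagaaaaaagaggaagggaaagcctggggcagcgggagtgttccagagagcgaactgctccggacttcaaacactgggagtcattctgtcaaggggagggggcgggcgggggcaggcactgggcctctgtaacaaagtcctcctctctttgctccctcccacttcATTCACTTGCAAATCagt
Cdh9: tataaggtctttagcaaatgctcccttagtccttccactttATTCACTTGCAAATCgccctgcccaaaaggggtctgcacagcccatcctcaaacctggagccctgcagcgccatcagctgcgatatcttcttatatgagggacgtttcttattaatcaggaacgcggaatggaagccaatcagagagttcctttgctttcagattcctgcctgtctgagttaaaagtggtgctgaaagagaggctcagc
The shared run, ATTCACTTGCAAATC, is 15 bases long. It spans bases 233 to 247 of the Cdh6 stretch, ending 4 bases before the start, and bases 42 to 56 of the Cdh9 stretch, ending 195 bases before the start. Searched on both strands of 32851 RefSeq windows of 300 bases, 250 before and 50 after a start, the run was found in 2 windows, those of Cdh6 and Cdh9, or 0.00609%. Among 190 pairs of members with a window, the median longest shared run was 9 bases and the next longest was 14, in Cdh23 and Pcdh20. The pair was chosen after its values were seen, and the run is a description of these letters, shared by a gene far above background and a neighbour not above it. Both stretches held 6 CG dinucleotides. Windows could be matched for 20 of 53 members, or 37.7%, too few to compare promoter composition over the family.

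The beta protocadherins were the class with the largest share above background, at 90.5%. These genes lie in tandem in their cluster. Of the 21, 19 were above background, and these lay between 7.80 and 10.05, with a median of 9.33. The highest were Pcdhb2 at 10.05 ± 0.074 (9.94, 10.07 and 10.13), Pcdhb3 at 9.88 ± 0.089 (9.76, 9.88 and 9.98) and Pcdhb16 at 9.84 ± 0.054 (9.78, 9.84 and 9.93). Pcdhb2 exceeded Pcdhb3 by 0.18 (SD of the difference 0.028), in 6 of 6 arrays. The next 4 steps down the order of all members, to Pcdhb16, Pcdhb18 and Pcdhb11 and then to Cdh4, were 0.033, 0.040, 0.016 and 0.12, and of these the last alone was larger than the SD of the difference. Over the 37 members above background, 26 of 36 neighbours in the order differed by less than the SD of their difference, and 8 kept the same order in all 6 arrays. The middle of the order is therefore a set of levels that the arrays could not rank.

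The lowest beta members were Pcdhb1 at 6.29 ± 0.17 and Pcdhb9 at 7.18 ± 0.12, both not above background, and Pcdhb5 at 7.80 ± 0.26 (7.44, 7.84 and 8.13), which passed the background of its own array in 4 of 6 arrays. Levels showed little relation to the place of the gene. Over the 21 beta genes, Spearman's rho between level and position in the cluster was 0.21, and 0.087 without Pcdhb1, the first gene. These are correlations across genes, which are not independent replicates, and no p was taken. Beta members are alike in sequence, and no step to divide the signal of near-identical genes is given in the methods. Of the 21 names, 9 are also older names of another beta gene, so the identity of these values is uncertain where the annotation mixed the usages.

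**Figure D3:**
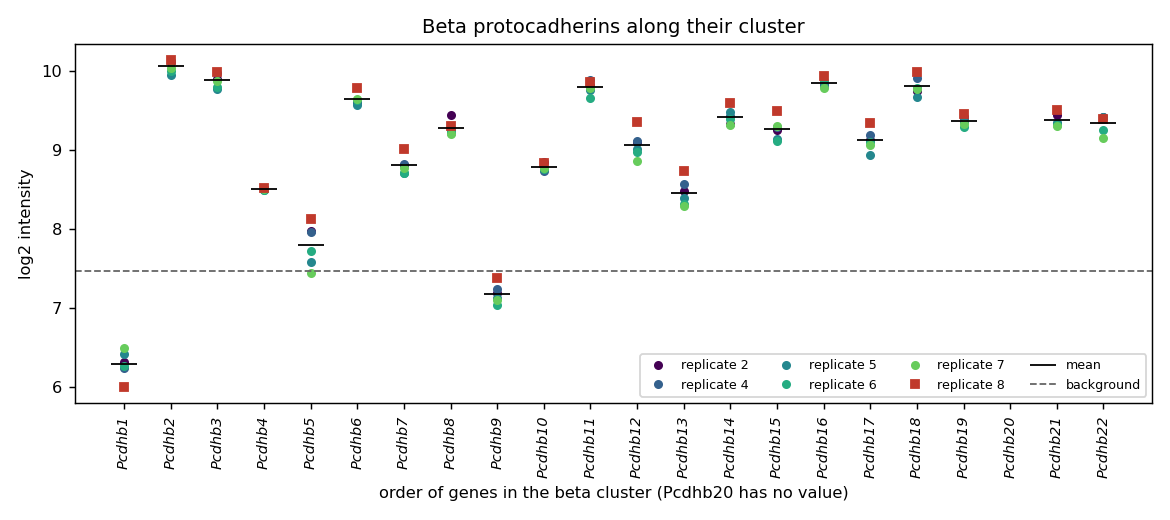
Log2 intensity (vertical axis) of the beta protocadherins in their order along the cluster (horizontal axis). Points are arrays, with replicate 8 as a red square, the black bar is the mean and the dashed line is the background level. Pcdhb1, Pcdhb5 and Pcdhb9 lie apart from the others, and replicate 8 is the highest array for 14 of the 19 genes above background.

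Outside the clusters, 7 protocadherins were above background, and 3 of them, Pcdh18, Pcdh8 and Pcdh10, stood at much the same level. Pcdh18 had 9.13 ± 0.13 (8.99, 9.09 and 9.35). Pcdh8, which acts in tissue movement and at synapses, had 9.11 ± 0.098 (9.02, 9.07 and 9.25). Pcdh10, which acts in axon growth and binds the actin regulator complex that holds Nckap1, had 9.09 ± 0.080 (8.98, 9.12 and 9.20). Pcdh18 and Pcdh8 differed by less than their spread, as did Pcdh8 and Pcdh10. Pcdh1 had 8.77 ± 0.061 (8.68, 8.79 and 8.84), Pcdh17, of axons and synapses, 8.40 ± 0.12 (8.18, 8.41 and 8.55), and the X-linked Pcdh11x 8.38 ± 0.17 (8.17, 8.35 and 8.60). Pcdh12, known from endothelium, had 7.81 ± 0.11 (7.68, 7.77 and 7.99), beside the endothelial markers given above. Pcdh15 at 7.38 ± 0.086, Pcdh19, an epilepsy gene, at 7.29 ± 0.16 and Pcdh20 at 6.88 ± 0.18 were not above background. Pcdh19 passed the background of its own array in 2 of 6 arrays.

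The next question was how far single members varied over the arrays. The median SD of the 37 members above background was 0.089 on the log2 scale, beside 0.076 for all 12793 genes above background. It was 0.074 for classical cadherins, 0.089 for beta protocadherins and 0.11 for protocadherins outside the clusters, and without replicate 8 it was 0.078, 0.083 and 0.086. SD falls with level, so the members were set against genes of like level. In the highest of 4 level groups of genes above background, the median SD was 0.058, and Cdh2, Cdh6 and Cdh11 had 0.037, 0.039 and 0.031. In the third group, which held 12 beta genes, their median SD was 0.088 beside 0.069 for all genes there. In the second group, 5 beta genes had a median of 0.11 beside 0.078. In all, 12 of 37 members had an SD below the median of their level group. An SD over 0.2 was found in 1 of 37 members, Pcdhb5, beside 4.16% of all genes above background. The smallest SD was 0.014, of Pcdhb4 at 8.51.

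**Figure D4:**
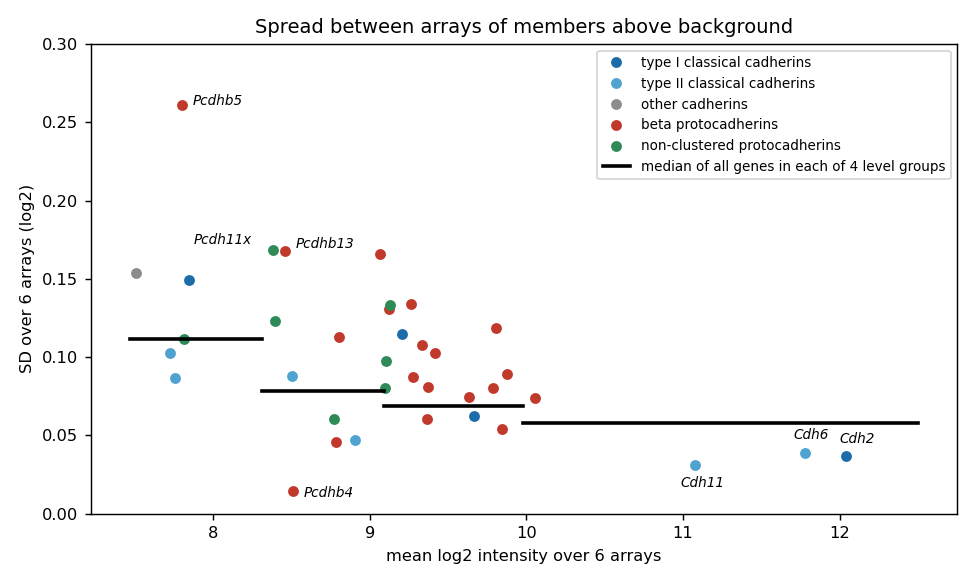
SD over 6 arrays (vertical axis, log2 units) against mean log2 intensity (horizontal axis) of the 37 members above background, coloured by class. Black lines are the median SD of all genes in each of 4 level groups of like size. Cdh2, Cdh6 and Cdh11 lie under the line of their group, and most beta protocadherins lie over theirs.

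The beta protocadherins moved together over the arrays. All 19 above background were above their own mean in replicate 8, beside 53.1% of all genes above background. Other lists also stood apart in this array, which was the highest for the mean of the 8 motor neuron markers (9.50 against 9.29 to 9.43), of the catenins and partners (10.09 against 10.02 to 10.05) and of the regulators of the protocadherin clusters (9.86 against 9.76 to 9.79). It was the lowest for 10 of 13 marker lists, those of interneurons, pluripotent cells, endoderm, mesoderm and mesenchyme, endothelium, muscle, epithelium, glia, neural crest and blood, for example at 7.61 against 7.81 to 7.92 for endoderm. Those 10 lists had means from 7.05 to 8.50 over the arrays, and the other marker lists had means of 9.36 or more. The 52 olfactory receptor genes above background had a mean deviation of -0.28 in replicate 8. Whether this array held fewer cells of these types was not tested. The part of the lists in the movement of the beta genes was not tested either. By array, 14 of the 19 were above their mean in replicate 2, 15 in replicate 4, 2 in replicate 5, 1 in replicate 6 and 2 in replicate 7. The mean of the 19 genes was 9.27, 9.28, 9.17, 9.18, 9.17 and 9.38 in replicates 2, 4, 5, 6, 7 and 8, or 9.24 ± 0.085. Replicate 8 was thus 0.14 above the mean of the arrays, and replicate 7 lay lowest at -0.075. Replicate 8 was the highest array for 14 of 19, or 73.7%, beside 27.5% of all genes above background and 27.9% of the 8544 genes in the level range of these beta genes. The exceptions were Pcdhb4, Pcdhb8, Pcdhb10, Pcdhb11 and Pcdhb22. When each array was centred on genes of like level, a step added after seeing the data, the count was 12 of 19 beside 24.6%.

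The mean Pearson's r over the 6 arrays between pairs of beta members was 0.61, with a median of 0.67, and 169 of 171 pairs were above 0. Without replicate 8 the mean was 0.36. For all genes above background it was 0.0028, and for those in the level range of the beta genes 0.0086. With arrays centred on genes of like level it was 0.47, and 0.24 when replicate 8 was also left out. The highest pair was Pcdhb12 and Pcdhb13 at 0.97, and the lowest was Pcdhb14 and Pcdhb8 at -0.12. Against the mean of the other beta members, single genes ranged from an r of 0.97 for Pcdhb13 to 0.45 for Pcdhb10. The 6 values of every gene come from the same arrays, and near-identical genes may share signal, so these correlations are descriptions with no p.

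The other classes had no such shared movement in their mean pairwise r, which was -0.041 for the 10 classical cadherins and -0.077 for the 7 protocadherins outside the clusters. The mean of the classical cadherins was 9.48, 9.43, 9.46, 9.44, 9.45 and 9.43 in the same order of arrays (9.45 ± 0.020). This pooled mean joins types that parted in replicate 8, with a mean deviation of -0.081 for type I and 0.024 for type II members. The mean of the protocadherins outside the clusters was 8.70, 8.66, 8.64, 8.65, 8.67 and 8.71 (8.67 ± 0.026). Single members within these classes moved in opposite ways in replicate 8, where Cdh15, at 7.59, and Pcdh17, at 8.18, were at their lowest and Pcdh18, at 9.35, at its highest. The difference between the classes was not tested.

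**Figure D5:**
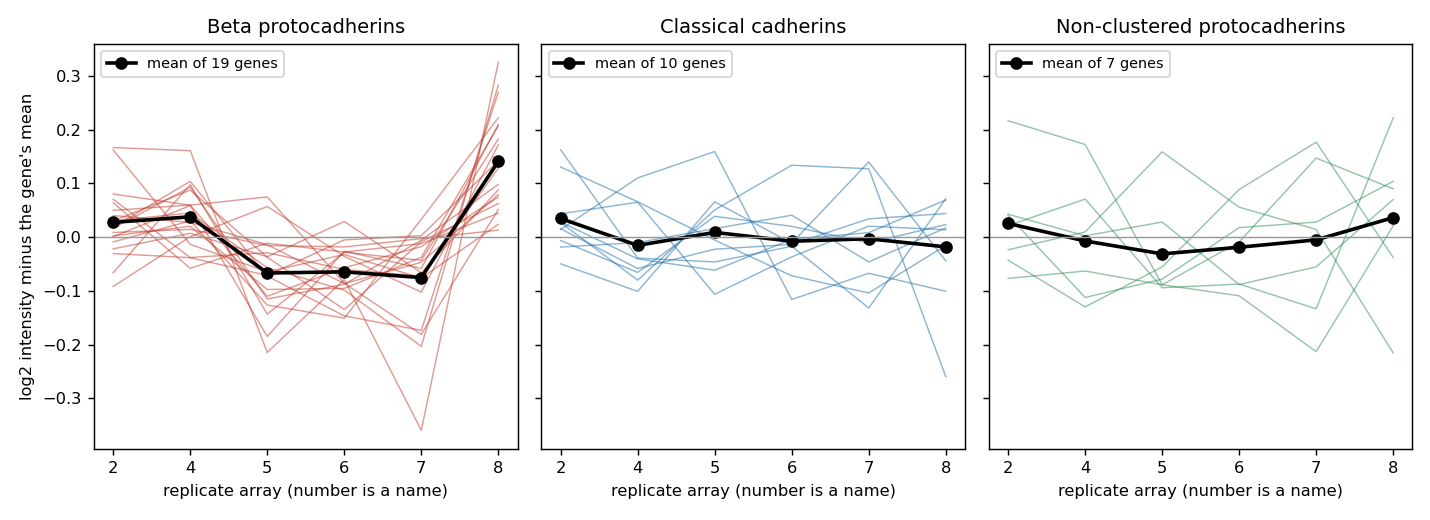
Deviation of each gene above background from its own mean (vertical axis, log2 intensity) in the 6 arrays (horizontal axis, whose numbers are names) for the 3 classes. Thin lines join the values of a gene and the thick black line is the mean of the class. The mean of the 19 beta protocadherins was 0.14 in replicate 8 and below 0 in replicates 5, 6 and 7, while the other class means stayed between -0.031 and 0.036.

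Class means were then set against 2 measures of the arrays, the mean of the motor neuron genes Olig2, Mnx1, Isl1 and Lhx3 and the median of the olfactory receptor genes, which stands for the low end of the scale. Together with Cdh1 against Cdh2, 7 relations were tested by two-sided exact permutation over 720 pairings and adjusted by Benjamini-Hochberg. The beta mean ran against the olfactory receptor median, which was 5.49, 5.58, 5.60, 5.61, 5.61 and 5.44 in the same order of arrays. Pearson's r was -0.91 (exact permutation p = 0.0139, adjusted p = 0.0535, n = 6) and Spearman's rho was -0.77 (exact permutation p = 0.103, adjusted p = 0.476). When the 2 arrays with the most extreme olfactory receptor levels, replicates 8 and 2, were left out, r was -0.97. In the arrays that remained, the beta mean was 9.28 in replicate 4 and 9.17, 9.18 and 9.17 in replicates 5, 6 and 7. This r therefore rests on replicate 4. Without replicate 8 alone, r was -0.76 (exact permutation, adjusted p = 0.292). For the protocadherins outside the clusters, r was -0.93 (exact permutation p = 0.0153, adjusted p = 0.0535) and rho was -0.71 (exact permutation p = 0.136, adjusted p = 0.476), but without the 2 farthest arrays r was -0.29, so this relation rests on them. Without replicate 8 alone it was -0.87 (exact permutation, adjusted p = 0.292). Neither passed the adjusted threshold of 0.05. For the classical cadherins, r with the olfactory receptor median was -0.075 (exact permutation p = 0.899, adjusted p = 0.899), rho was 0.20 (exact permutation p = 0.714, adjusted p = 0.833) and r without the 2 farthest arrays was 0.53. This value depended on the scaling, and was -0.98 with each array centred on its median (exact permutation, adjusted p = 0.0745). With centring on genes of like level it was -0.74 (exact permutation, adjusted p = 0.13). Median centring takes the same array median from both measures. The other centring was applied to the class mean, while the olfactory receptor median was kept as deposited. As r changed with the scaling, the classical cadherins are not set apart from the protocadherins by it. Over these 6 arrays the beta mean tended to be higher where the low end of the scale was lower, but this relation did not pass the adjusted threshold here. With arrays centred on genes of like level, the count and the correlations of the beta genes were those given above. The part of the low end in their shared movement was not tested further.

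The motor neuron genes, at 9.05, 9.07, 9.23, 9.11, 9.03 and 9.17, gave no relation that passed. The study's methods used the same genes to correct expression for differences between batches of neurons. Whether that correction entered these values is not given, so the lack of a relation cannot be interpreted. With their mean, r was 0.094 for the beta protocadherins (exact permutation p = 0.844), -0.17 for the classical cadherins (exact permutation p = 0.756) and -0.25 for the protocadherins outside the clusters (exact permutation p = 0.629), each with an adjusted p of 0.899. The matching rho values were 0.26 (exact permutation p = 0.658), -0.26 (exact permutation p = 0.658) and -0.37 (exact permutation p = 0.497), each with an adjusted p of 0.833, and r without the 2 farthest arrays was -0.094, -0.37 and -0.57. Cdh1 and Cdh2, which trade places when epithelial cells become neural or mesenchymal, had an r of -0.24 (exact permutation p = 0.683, adjusted p = 0.899), a rho of -0.029 (exact permutation p = 1, adjusted p = 1) and an r of -0.74 without the 2 farthest arrays. The smallest adjusted p that a single relation among 7 can reach by itself with 6 arrays is 0.0194. No batch is named in the labels, so within-batch values cannot be given.

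The partners of the members were read from lists of pathway genes, whose counts above background stand beside 65.2% of all genes. All 9 of the 9 matched catenins and relatives were above background, with beta-catenin (Ctnnb1) at 12.21 ± 0.028, higher than Cdh2, p120-catenin (Ctnnd1), which steadies cadherins at the surface, at 10.57 ± 0.054, alpha-catenin (Ctnna1), which meets actin, at 9.69 ± 0.075 and plakoglobin (Jup), of junctions and desmosomes, at 9.60 ± 0.13. Ctnna2, Ctnna3 and Ctnnd2 were not analysed here. Of the rest of the cadherin superfamily, 11 of 24 were above background. These were the giant and multi-pass cadherins of planar polarity Fat1 (11.03 ± 0.034), Fat4, Dchs1, Dchs2 (11.20 ± 0.056), Celsr1, Celsr2 (11.16 ± 0.098) and Celsr3, the synaptic calsyntenins Clstn1 (10.78 ± 0.061), Clstn2 and Clstn3, and the receptor Ret (9.39 ± 0.14). None of the 7 desmosomal cadherins was above background, the highest being Dsg2 at 7.33 ± 0.072, nor was any of the 5 Cdhr genes or Fat2.

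Of the genes that control the protocadherin clusters, 15 of 16 were above background, beside 65.2% of all genes. They included Ctcf (9.83 ± 0.057), whose protein binds cluster promoters and enhancers, the cohesin subunit Rad21 (10.86 ± 0.019), and Smchd1 (9.61 ± 0.069), which silences cluster genes. Dnmt3b, a DNA methyltransferase that acts on cluster promoters, was not above background at 7.42 ± 0.037. Of the genes that cut the proteins or carry their signal, 10 of 11 were above background, among them Adam10 (10.20 ± 0.077), whose protein cuts cadherins and protocadherins, Ptk2 (10.07 ± 0.027), a kinase held in check by clustered protocadherins, and Nckap1 (10.68 ± 0.032), while Ptk2b, the other such kinase, was not, at 7.39 ± 0.11. In the other marker lists, 3 of 6 were above background for endoderm, 4 of 10 for mesoderm and mesenchyme, 2 of 4 for blood and 6 of 7 for glia. Of all genes, 65.2% were. The mesoderm and mesenchyme genes, the list nearest to the known tissue of Cdh11, had a mean that ranged from 7.39 to 7.76 over the arrays, with Twist2 at 9.26 ± 0.11 and Col1a1 at 8.64 ± 0.12 above background and Pdgfra (6.39 ± 0.098), Prrx1 (6.91 ± 0.19) and Twist1 (7.22 ± 0.098) below it. Their part in the level of Cdh11 was not tested.

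The last question was whether 1 array stood far from the others for single members. By Dixon's ratio, the gap of the farthest array over the whole range, 1 of 37 members passed the 95% critical value, beside 6.97% of all genes above background. This was Pcdhb6, at 9.63 ± 0.074, where the other arrays lay between 9.56 and 9.64 and replicate 8 stood at 9.78.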

How the data were processed

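Expression was measured in 6 samples of total RNA on Affymetrix mouse exon arrays. Per the labels, the authors processed the arrays with Affymetrix Expression Console and RMA, and per the methods with RMA in the Aroma Affymetrix package, taking the mean over the exons of a gene in release 33 of the array annotation. Each deposited value is an intensity on a linear scale. Which arrays were normalized together, the genome build of the annotation and any correction for batches of neurons in these values are not given in the sources used here, so the centring of the values is unknown. The table held 0 columns of other samples.

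The log2 of each deposited intensity was taken, with no pseudocount. A gene was above background when its mean passed the 95th percentile of 1032 olfactory receptor genes (Olfr). SDs, Pearson's r, Spearman's rho, two-sided exact permutation tests with Benjamini-Hochberg adjustment over 7 relations, and Dixon's ratio were computed in Python 3.11.15 with numpy 2.4.6, pandas 2.3.3 and scipy 1.17.1, and the code was tested on simulated data. The number of arrays sets the precision, since intensities carry no counts.

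All 53 member names were current RefSeq symbols (GRCm38.p6, used for names, gene order and promoters), and 11 are also older names of another gene. Named were all Cdh genes, all protocadherins outside the clusters, the 3 highest and 3 lowest beta genes, genes past Dixon's value and those beside the background line. Other beta genes are named for places in orders or counts that were seen first. The members, lists and tests were chosen with earlier results of these data known. Replicate 8 counts, neighbour runs, the promoter pair and the centring on genes of like level (20 bins) were chosen after seeing the data. Alternatives were a 99th percentile background, background passed in every array, no filter, median centring, class medians, the coefficient of variation and leaving out each array.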

Additional observations from a re-analysis of the deposited data

Results flagged for a closer look

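For Pcdhb6, replicate 8 lay far above the other arrays, with a Dixon ratio of 0.652. The mean of the 4 type I classical cadherins above background was low in the same array, at 9.61 against 9.69 to 9.73, with a ratio of 0.696. Among 44 sets of 6 values examined, those of genes, class means, the motor neuron genes and the olfactory receptor median, 2 passed. By chance about 1 in 20 pass, and of all genes above background 6.97% did.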

How the results depend on the processing

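No paired analysis was possible because there is only 1 group. All 37 members stayed above background when any array was left out. With the background at the 99th percentile, 31 did, without Cdh5, Cdh10, Cdh15, Cdh16, Pcdh12 and Pcdhb5, beside 48.6% of all genes, and 0 of 4 other cadherins remained. When every array had to pass, 35 did, without Cdh16 and Pcdhb5, beside 62.0% of all genes, again with 0 other cadherins. The median SD of classical cadherins was 0.047 at the 99th percentile. Median centring gave a median SD of 0.11 for beta protocadherins and 0.10 for all members, and no filter gave 0.10 for beta protocadherins. The mean pairwise r under median centring was 0.064 for classical cadherins and 0.0065 for protocadherins outside the clusters. Without single arrays, that of beta protocadherins ranged from 0.36 (without replicate 8) to 0.69.

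The r with the olfactory receptor median passed the adjusted threshold under the 99th percentile, at -0.91 for beta protocadherins (exact permutation, adjusted p = 0.034) and -0.94 for those outside the clusters (exact permutation, adjusted p = 0.00972), and with class medians at -0.93 for beta protocadherins (exact permutation, adjusted p = 0.0292). It was weaker for those outside the clusters with class medians, at -0.79 (exact permutation, adjusted p = 0.233), and with no filter, at -0.71 (exact permutation, adjusted p = 0.384). Relations with the motor neuron genes changed sign. For classical cadherins r was 0.23 at the 99th percentile, 0.18 under median centring and 0.28 with class medians, and -0.54 to 0.37 without single arrays. For protocadherins outside the clusters it was 0.22 under median centring and 0.39 with class medians, and -0.75 to 0.38 without single arrays. For beta protocadherins it was -0.064 with centring on genes of like level, and -0.39 to 0.65 without single arrays. Cdh1 and Cdh2 had 0.040 with that centring and -0.93 to 0.37 without single arrays, and the classical cadherins with the olfactory receptor median -0.79 to 0.65. With 5 arrays, a single relation by itself can reach an adjusted p of 0.117 at the smallest. The cause of these changes was not tested. Replicate 8 was highest for 13 of 18 beta genes at the 99th percentile, beside 32.1% of all genes, for 18 of 19 under median centring, beside 44.6%, and for 12 of 19 with centring on genes of like level, beside 24.6%. Without controls, no depth in counts and 6 arrays, differences smaller than the SDs cannot be read.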
